A study of Mus musculus with 8 samples.

Results

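In newborn mouse epidermis with and without Zfp750, 8 genes of the Notch pathway were followed: the 3 receptors Notch1, Notch2 and Notch3, the ligands Jag1 and Jag2, the nuclear partners Rbpj and Maml1 and the repressor Hes1. They were chosen by name as rows of the expression table, and all 8 were found among its 15995 genes. The knockout group was 4 samples from ZFP750-/- mice and the control group 4 samples from wild-type (WT) mice, all newborns of the strain C57BL/6J. In both groups the epidermis had been peeled from trypsin-treated skin, and its total RNA was sequenced after depletion of ribosomal RNA. The sources used here do not give the deleted part of Zfp750, the sex of the animals or whether each sample is 1 animal, so p-values measure the spread between these samples.

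Notch signalling passes between touching cells. A Jagged or Delta ligand on one cell pulls on a Notch receptor on its neighbour, a metalloprotease and then the gamma-secretase complex cut the receptor, and the freed intracellular part enters the nucleus. There it joins the DNA-binding protein Rbpj and a Mastermind coactivator such as Maml1 and switches on genes of which Hes1 is the classic example. In mouse epidermis the pathway is known for its part in the passage of keratinocytes from the basal to the spinous layer, and Zfp750 is a zinc finger protein of the differentiating layers.

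Of the 8 genes 1 rose, none fell and 7 did not pass. Notch1 was 3.03 times as abundant in the knockouts as in the wild types. Among all 11395 tested genes 15.7% differed by limma at an adjusted p under 0.05 (6.72% upward and 8.94% downward), so the share of the 8 that differed, 12.5%, was close to the background. Their median log2 change was 0.32, beside 0.01 over all tested genes, and 6 of the 8 changes were above 0. Levels are in FPKM, fragments scaled to transcript length and to the mapped total of the library, which allows genes of different length to be compared. Changes are differences of log2(FPKM + 1), with the wild-type mean subtracted from the knockout mean, and are given ± standard error (SE).

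The libraries also differed beyond these genes. Zfp750 stood at 1.53 to 2.68 FPKM in the knockouts and 81.6 to 119 FPKM in the wild types. The labelled tissue was checked on keratinocyte markers: Krt5 and Krt14 reached at least 358 and 417 FPKM in every library and the envelope protein gene Lor at least 2188 FPKM, while Krt1 and Krt10 were listed at 0 in 6 libraries and Flg was not analysed here. Xist, which coats the inactive X chromosome, was at 84.6 to 150.4 FPKM in knockouts 1 to 3 and in wild type 3 at 118 FPKM, at 1.84 FPKM in knockout 4, and at most at 0.0223 FPKM in wild types 1, 2 and 4. High Xist was thus spread unevenly over the genotypes, and the part of sex in the results was not tested. Sample titles carry a code (11, 14 or 44) of unstated meaning. Codes 11 and 14 each mark 1 knockout and 1 wild type (knockouts 1 and 2, wild types 4 and 3) and code 44 marks knockouts 3 and 4 and wild types 1 and 2. Steps in the lowest values put the depth of the other libraries at 0.998 to 1.46 times that of knockout 1. Read totals are not known, and values carry no counting interval.

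Notch1 is the receptor most closely tied to epidermal differentiation. Its level was 72.5, 66.1, 92.5 and 77.6 FPKM across knockouts 1 to 4 and 16.9, 18.8, 32.4 and 33.8 FPKM across wild types 1 to 4. Each knockout library exceeded each wild-type library. Within the wild types the pair with code 44 was lower than the pair with codes 11 and 14, and in the knockouts the pair with code 44 was the higher one. The means were 77.2 ± 11.3 and 25.5 ± 8.86 FPKM (SD, n = 4 each), and the change was 1.61 ± 0.23 (95% interval 1.10 to 2.13; limma adjusted p = 0.00154). Non-overlapping groups were found for 21.3% of all tested genes. With log2 Xist as a covariate the Notch1 change was 1.43 (limma adjusted p = 0.0108), when 10% of all tested genes passed. Within title codes 11 and 14 the difference was 1.04 and within code 44 it was 2.19. The interaction of genotype and code, a test added after the values were seen, gave 1.14 ± 0.20 (unadjusted p = 5.08e-04, limma adjusted p = 0.153), and it passed for 0 of 11395 genes at an adjusted p of 0.05 (1771 at an unadjusted p under 0.05). Notch1 occupies chromosome 2 from 26457903 to 26516663 (GRCm38, the same assembly as mm10), on the minus strand, with 34 exons in its longest annotated transcript by exon count. It shares 1068 exonic bases with 0610009E02Rik and 414 with Gm13568 on the opposite strand, and the sources used here do not say whether counting used strand.

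Notch2 went the other way without passing. Its level was 36.8, 38.9, 43.1 and 50.3 FPKM across knockouts 1 to 4 and 60.6, 58.4, 49.5 and 50.4 FPKM across wild types 1 to 4. The groups overlapped by knockout 4, which lay above wild type 3. The means were 42.3 ± 5.96 and 54.7 ± 5.60 FPKM (SD, n = 4 each) and the change was -0.37 ± 0.13 (95% interval -0.66 to -0.08; limma adjusted p = 0.0866). It passed without knockout 4 (-0.45, limma adjusted p = 0.0310) and with libraries weighted by their fit to the others (-0.49, limma adjusted p = 0.00691). In those fits 20.1% and 32.2% of all tested genes passed. With log2 Xist as a covariate the change was -0.22 (limma adjusted p = 0.419). With the mean level of the basal keratinocyte markers as a covariate it was -0.09 (limma adjusted p = 0.779). Notch2 lies on chromosome 3 from 98013527 to 98150361 on the plus strand, with 34 exons.

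Notch3, known outside the epidermis for its role in vascular mural cells, showed no common direction. Its level was 25.3, 24.3, 34.6 and 47.8 FPKM across knockouts 1 to 4 and 28.5, 32.3, 32.7 and 31.4 FPKM across wild types 1 to 4. Knockouts 1 and 2 lay below all wild types and knockouts 3 and 4 above them. The means, 33.0 ± 10.9 and 31.3 ± 1.91 FPKM (SD, n = 4 each), differed by 0.02 ± 0.20 (95% interval -0.42 to 0.47; limma adjusted p = 0.951). Within codes 11 and 14 the difference was -0.36, and within code 44 it was 0.41 (interaction 0.77 ± 0.24, limma adjusted p = 0.226). Mural cell markers were scarce: 4 of 5 were listed, and their summed level was 1.38 to 7.73 FPKM in the knockouts and 1.62 to 5.69 FPKM in the wild types. Most of it was Cspg4 (1.11 to 6.19 and 1.22 to 5.13 FPKM). Notch3 lies on chromosome 17 from 32120820 to 32166852 on the minus strand, with 33 exons, and shares 488 exonic bases with Gm17276 on the other strand.

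**Figure D1:**
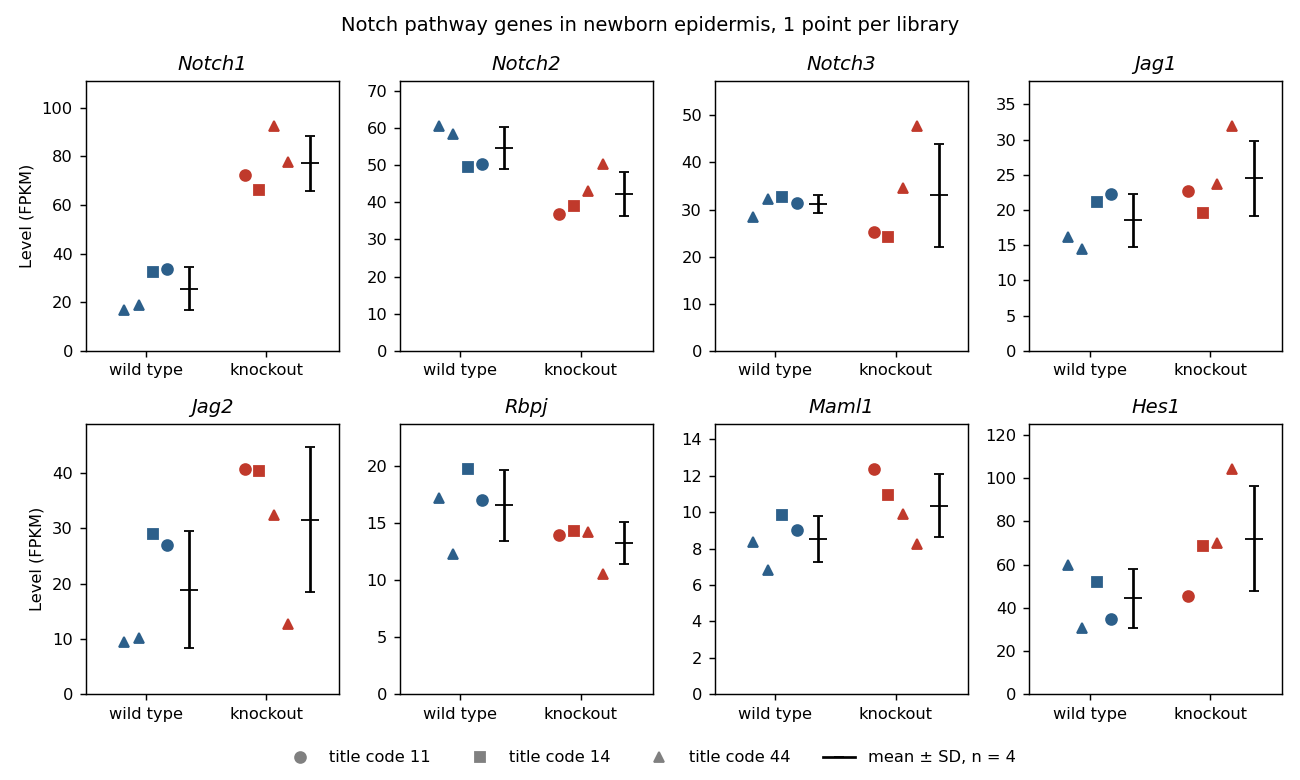
Level (FPKM, linear axis from 0) of the 8 genes, with 1 point per library, the shape giving the title code and the black bar the mean ± SD of 4 libraries. For Notch1 all knockouts (66.1 to 92.5 FPKM) lie above all wild types (16.9 to 33.8 FPKM), and in the other 7 panels the groups overlap.

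The receptors' genotype differences were set against each other within libraries. Notch1 made up 53.9%, 51.1%, 54.3% and 44.2% of the summed FPKM of the 4 Notch receptors in knockouts 1 to 4, and 15.9%, 17.2%, 28.2% and 29.2% in wild types 1 to 4. The Notch2 share was 25.3% to 30.1% in the knockouts and 43.1% to 57.2% in the wild types, and the summed level was 129 to 176 and 106 to 116 FPKM. Notch1 was thus the most abundant receptor in each knockout and Notch2 in each wild type. The genotype difference of Notch1 exceeded that of Notch2 by 1.98 and that of Notch3 by 1.59 (log2; exact two-sided permutation p = 0.0286 for both, the smallest that 70 assignments of 8 libraries allow). The difference of Notch2 was below that of Notch3 by 0.39 (exact permutation p = 0.0571). Adjusted over the 4 pairs compared, the exact permutation p-values were 0.0571, 0.0571 and 0.0762, and none passed. Notch4, known mainly from endothelium, stayed at or below 0.119 FPKM in each library and was not tested.

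**Figure D2:**
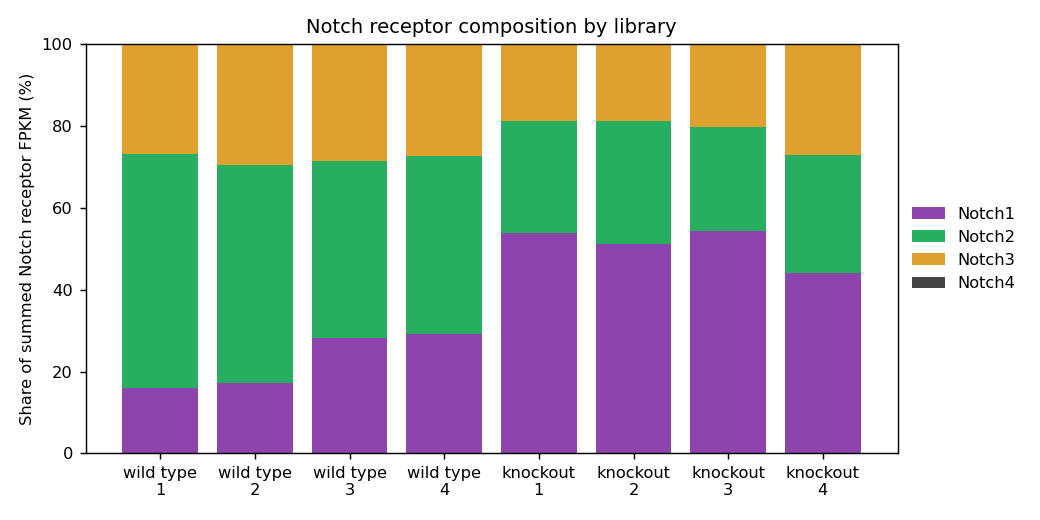
Share of each receptor (%, stacked) in the summed FPKM of Notch1 to Notch4 in each of the 8 libraries. Notch1 takes 44.2% to 54.3% in the knockouts and 15.9% to 29.2% in the wild types, and Notch4 is too low to be seen.

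Since 1 of the 3 receptors differed and the others did not pass, the stretches upstream of their start sites are shown beside each other. They are the 250 bases before the annotated start, from RefSeq (GRCm38.p6), 5′ to 3′ in the direction of the gene: chr2:26503823-26504072 on the minus strand for Notch1, chr3:98013288-98013537 on the plus strand for Notch2 and chr17:32166891-32167140 on the minus strand for Notch3. The RefSeq start of Notch1 lies inside the longer span that GENCODE gives the gene. Capitals mark each match to GGGCGG on either strand, the GC box bound by Sp and KLF factors.
Notch1: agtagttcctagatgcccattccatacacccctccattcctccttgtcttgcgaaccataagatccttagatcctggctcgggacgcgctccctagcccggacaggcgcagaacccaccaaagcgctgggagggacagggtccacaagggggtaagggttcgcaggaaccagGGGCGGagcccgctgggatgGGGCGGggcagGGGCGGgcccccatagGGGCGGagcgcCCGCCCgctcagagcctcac
Notch2: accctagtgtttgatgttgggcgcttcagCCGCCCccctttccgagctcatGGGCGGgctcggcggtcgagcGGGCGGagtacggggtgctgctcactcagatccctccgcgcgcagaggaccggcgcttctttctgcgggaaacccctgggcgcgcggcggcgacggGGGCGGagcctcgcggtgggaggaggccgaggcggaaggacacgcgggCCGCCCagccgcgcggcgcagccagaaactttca
Notch3: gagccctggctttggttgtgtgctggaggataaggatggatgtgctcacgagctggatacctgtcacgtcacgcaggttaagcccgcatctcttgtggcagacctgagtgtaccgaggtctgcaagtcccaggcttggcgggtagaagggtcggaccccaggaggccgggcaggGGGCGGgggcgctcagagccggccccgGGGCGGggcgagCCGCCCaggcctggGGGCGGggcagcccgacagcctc

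GGGCGG occurred 5 times before Notch1, 5 times before Notch2 and 4 times before Notch3. Of 32851 such windows, 32.7% held at least 1 match and 4.09% held 4 or more. In Notch1 the matches lay within 78 bases of the start, in Notch3 within 76 and in Notch2 within 221. The windows were 66.0%, 72.0% and 68.8% G and C, beside a median of 52.4% over all windows. TGGGAA, the core of the Rbpj site, was not in any of the 3 windows on either strand (21.6% of all windows held it). CCNNAGGC, the sequence described for the human homologue of Zfp750, was found once before Notch3 and not before Notch1 or Notch2 (20.4% of all windows held it). Matches of the 3 motifs were counted separately, and they describe letters only. Windows were found for 7 of the 8 genes. Among the other genes Maml1 also had 1 match to CCNNAGGC. Rbpj has 2 annotated starts whose windows overlap, with 2 matches to TGGGAA before one start, of which 1 also lies in the window of the other.

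Of the ligands, Jag1 is made in many epithelia. Its level was 22.8, 19.5, 23.7 and 31.9 FPKM across knockouts 1 to 4 and 16.1, 14.5, 21.1 and 22.3 FPKM across wild types 1 to 4, so that the groups overlapped. The change was 0.38 ± 0.18 (95% interval -0.03 to 0.80; limma adjusted p = 0.209). It was -0.038 within codes 11 and 14 and 0.81 within code 44 (interaction 0.85 ± 0.25, limma adjusted p = 0.205). Jag1 lies on chromosome 2 from 137081456 to 137116644 on the minus strand, with 26 exons.

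Jag2, the second Jagged ligand, had the largest SE of the 8 genes. Its level was 40.7, 40.4, 32.5 and 12.7 FPKM across knockouts 1 to 4 and 9.48, 10.1, 29.0 and 27.1 FPKM across wild types 1 to 4. Knockout 4 and wild types 1 and 2 formed a low trio that crossed the genotypes. The means were 31.6 ± 13.2 and 18.9 ± 10.6 FPKM (SD, n = 4 each) and the change 0.76 ± 0.46 (95% interval -0.27 to 1.78; limma adjusted p = 0.326). With libraries weighted by their fit to the others it was 1.37 and passed (limma adjusted p = 0.0150). The genotype difference of Jag1 was below that of Jag2 by 0.37 (exact permutation p = 0.629, the same after adjustment over 4 pairs). Jag2 lies on chromosome 12 from 112907819 to 112929776 on the minus strand, with 26 exons.

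Other cells in the peel varied over the same libraries. The 6 melanocyte markers, all tested and none of which passed, summed to 16.8 FPKM in knockout 4, to 13.4 and 30.3 FPKM in wild types 1 and 2, and to 45.0 to 89.8 FPKM in the other 5 libraries. The 6 basal keratinocyte markers, of which 4 rose (Krt14, Itga6, Itgb4 and Col17a1), summed to 2236 to 6039 FPKM in the knockouts and 1103 to 3441 FPKM in the wild types, with knockout 4 and wild types 1 and 2 lowest in their genotypes. In bulk RNA fewer cells of a type and less RNA per cell cannot be told apart. With the mean basal marker level as a covariate, chosen after the values were seen, the Jag2 change was -0.67 (limma adjusted p = 0.253) and the Notch1 change was 0.9995 and still passed (limma adjusted p = 0.0426). Since 4 of the 6 basal markers themselves differed by genotype, that covariate removes part of the genotype difference. With the melanocyte level in its place Notch1 changed by 1.48 (limma adjusted p = 0.00171) and the Jag2 change was 0.27 (limma adjusted p = 0.448). Knockout 4 parted from the trio for Notch1, at 77.6 FPKM. Among the hemidesmosome genes of the basal list it was within the range of the other knockouts for Itgb4 (79.2 FPKM) and the lowest knockout for Col17a1 (190.0 FPKM) and Itga6 (64.6 FPKM). For Col17a1 it still lay above all wild types, and for Itga6 below wild type 4 (66.3 FPKM). The keratins Krt14 and Krt5, at 1112 and 531 FPKM, were lower there than in wild types 3 and 4. A marker of differentiated keratinocytes, the envelope protein gene Ivl, also rose, from 152 to 216 FPKM in the wild types to 403 to 722 FPKM in the knockouts (1.46 ± 0.19, limma adjusted p = 8.44e-04), and knockout 4 was the highest. Lor did not pass (-0.35 ± 0.18, limma adjusted p = 0.255).

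**Figure D3:**
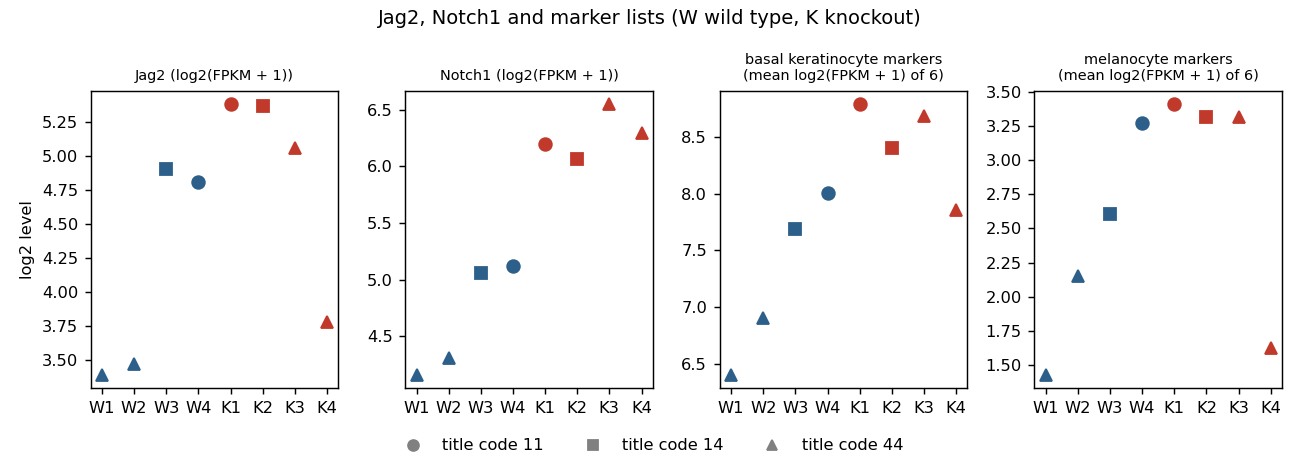
Levels on the log2(FPKM + 1) scale of Jag2 and Notch1 and the mean of the 6 basal keratinocyte and 6 melanocyte markers in each library, with the shape giving the title code. Knockout 4 sits with wild types 1 and 2 for Jag2 and the melanocyte markers, and with the other knockouts for Notch1.

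Markers of further cell types were looked at in the same way. For T cells, which use Notch1 themselves, 3 of 4 markers were listed and summed to 0.628 to 1.56 FPKM in the knockouts and 3.13 to 6.64 FPKM in the wild types. Of the 6 endothelial markers 3 were listed, at a sum of at most 0.910 FPKM in any library. The 6 fibroblast markers summed to 22.6 to 188 FPKM in the knockouts, highest in knockout 2, and 31.0 to 90.0 FPKM in the wild types. Hair follicle markers, 5 of 5 listed, summed to 9.82 to 31.7 and 7.73 to 39.9 FPKM. Of 5 Langerhans cell markers 4 were listed, summing to 54.0 to 126 and 71.2 to 121 FPKM, nearly all of it Epcam (52.9 to 124 and 63.8 to 103 FPKM). Cd74, which serves antigen presentation, fell from 7.28 ± 3.57 to 0.878 ± 0.239 FPKM (SD, n = 4 each; limma adjusted p = 0.00170). H2-Ab1 was at 0.350 to 1.37 FPKM in the knockouts and 0.862 to 3.35 FPKM in the wild types and did not pass (limma adjusted p = 0.222), and H2-Aa, at 0 to 0.280 and 0.658 to 4.21 FPKM, was too low to test. The T cell marker Cd3g also fell. Their part in the results was not tested.

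Neither of the nuclear partners passed. Rbpj, the DNA-binding protein on which the receptors act, was measured at 13.99, 14.3, 14.2 and 10.5 FPKM across knockouts 1 to 4 and 17.2, 12.3, 19.7 and 17.0 FPKM across wild types 1 to 4. Wild type 2 lay below 3 of the knockouts. The change was -0.29 ± 0.16 (95% interval -0.66 to 0.08; limma adjusted p = 0.287). Maml1, the Mastermind coactivator, was measured at 12.4, 10.97, 9.87 and 8.24 FPKM across knockouts 1 to 4 and 8.37, 6.83, 9.84 and 9.02 FPKM across wild types 1 to 4. The ranges overlapped, and the change was 0.25 ± 0.16 (95% interval -0.10 to 0.61; limma adjusted p = 0.343). Rbpj lies on chromosome 5 from 53466152 to 53657362 on the plus strand and Maml1 on chromosome 11 from 50255634 to 50292311 on the minus strand.

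Hes1, the repressor that Notch induces, did not pass. Its level was 45.5, 68.4, 69.9 and 104 FPKM across knockouts 1 to 4 and 59.7, 30.7, 51.9 and 34.8 FPKM across wild types 1 to 4. Knockout 1 lay below wild types 1 and 3, and the other 3 knockouts above all wild types. The means were 72.0 ± 24.2 and 44.3 ± 13.8 FPKM (SD, n = 4 each), and the change was 0.68 ± 0.27 (95% interval 0.06 to 1.30; unadjusted p = 0.0337, limma adjusted p = 0.134). Hes1 occupies chromosome 16 from 30064384 to 30067796 on the plus strand, with 4 exons.

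In the wild types the order of mean levels was Notch2 (54.7 FPKM), Hes1 (44.3), Notch3 (31.3), Notch1 (25.5), Jag2 (18.9), Jag1 (18.5), Rbpj (16.6) and Maml1 (8.52). In the knockouts it was Notch1 (77.2 FPKM), Hes1 (72.0), Notch2 (42.3), Notch3 (33.0), Jag2 (31.6), Jag1 (24.5), Rbpj (13.3) and Maml1 (10.4). Each neighbouring pair in both orders had overlapping library values, apart from Jag1 and Rbpj in the knockouts and Rbpj and Maml1 in the wild types.

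The other genes of the pathway were taken from a list of 67, of which 62 were listed and 51 were tested. Among these 3 rose and 5 fell, 15.7% of the list beside 15.7% of all tested genes. Their median change was 0.12, and the groups did not overlap for 12 of the 51, beside 21.3% of all tested genes. With the basal marker covariate 1 of these 8 genes, Dtx4, still passed, and with Xist as a covariate 5 did. Over all tested genes 5.71% and 10% passed with these covariates. The counts moved with the libraries used: 13 passed without knockout 4, 5 without wild type 1 and 4 without wild type 2. The share of all tested genes that passed moved too, being 20.1%, 9.69% and 10.4% in those fits.

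Of 9 tested genes that cut the receptors, 1 rose and 1 fell (22.2%, beside 15.7% of all tested genes). Psen2, which can form the catalytic core of gamma-secretase, was measured at 5.76, 6.69, 7.004 and 8.37 FPKM across knockouts 1 to 4 and 1.65, 1.10, 2.53 and 2.70 FPKM across wild types 1 to 4. The groups were far apart, with a change of 1.44 ± 0.21 (limma adjusted p = 0.00159). With the basal marker covariate it was 1.19 (limma adjusted p = 0.0507). Aph1a, a scaffold subunit of the same complex, fell from 34.2 ± 1.19 to 24.9 ± 2.78 FPKM (SD, n = 4 each; -0.45 ± 0.11, limma adjusted p = 0.0231). It shares 445 exonic bases with Car14 on the other strand, which was at most at 1.49 FPKM. The call was lost without knockout 1 (limma adjusted p = 0.0542), wild type 1 (0.0559) or wild type 2 (0.0710). Psenen, the smallest subunit, was measured at 57.7 to 95.5 and 81.4 to 99.9 FPKM (-0.27 ± 0.16, limma adjusted p = 0.307).

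Of 9 tested genes of receptor trafficking and turnover 2 fell (22.2%, beside 8.94% of all tested genes). Whether these shares differ was not tested. Numbl, a relative of the Notch inhibitor Numb, was measured at 10.1, 10.2, 7.40 and 3.77 FPKM across knockouts 1 to 4 and 15.2 to 18.8 FPKM in the wild types. All knockouts were lower, and knockout 4 was lowest (-1.08 ± 0.25, limma adjusted p = 0.0199). The call was lost without knockout 3 (limma adjusted p = 0.0517) or wild type 2 (0.0600). Dtx4, a Deltex ubiquitin ligase, fell from 1.63 ± 0.305 to 0.384 ± 0.114 FPKM (SD, n = 4 each; -0.92 ± 0.15, limma adjusted p = 0.00325). At such levels the pseudocount of 1 damps the change, which was -1.85 with 0.1. It did not pass within code 44 alone (-0.86, limma adjusted p = 0.0760). Dtx2, a more abundant Deltex gene, was measured at 22.1 to 37.5 FPKM in the knockouts and 19.5 to 23.5 FPKM in the wild types (0.47 ± 0.17, limma adjusted p = 0.0924). It passed without knockout 1 (limma adjusted p = 0.0162).

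In the nucleus, 1 of 7 coactivator genes (14.3%) and 1 of 11 corepressor genes (9.09%) fell and none rose. Over all tested genes 8.94% fell and 6.72% rose. Kat2b, an acetyltransferase that can act with the Notch complex, was measured at 4.52, 4.88, 4.78 and 4.89 FPKM across knockouts 1 to 4 and 10.05, 8.10, 10.5 and 7.55 FPKM across wild types 1 to 4. The knockouts lay close together and all below the wild types (-0.79 ± 0.14, limma adjusted p = 0.00456). Within code 44 alone the change was -0.78 and did not pass (limma adjusted p = 0.0590). Cir1, a corepressor that binds Rbpj, fell from 13.96 ± 1.51 to 8.85 ± 2.05 FPKM (SD, n = 4 each; -0.62 ± 0.17, limma adjusted p = 0.0348). It overlaps Sp9 and Scrn3 on the other strand. Its call was lost without any 1 of 5 libraries, knockout 1 (limma adjusted p = 0.0798), knockout 2 (0.0969), wild type 1 (0.102), wild type 2 (0.0938) or wild type 4 (0.0627).

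Of 5 tested genes described as Notch targets outside the Hes and Hey family, 2 rose (40%) and 3 did not pass. Over all tested genes 6.72% rose, and whether the shares differ was not tested. All 5 changes were above 0, as were 5797 of the 11395 over all tested genes. Cdkn1a, the cell cycle inhibitor p21, was measured at 149.7, 135, 139 and 210.2 FPKM across knockouts 1 to 4 and 90.7, 83.7, 74.5 and 105 FPKM across wild types 1 to 4. Each knockout was higher than each wild type (0.82 ± 0.17, limma adjusted p = 0.00915). The call was lost within codes 11 and 14 (0.68, limma adjusted p = 0.0847) and without knockout 4 and wild types 1 and 2 together (0.67, limma adjusted p = 0.0669). Myc, a growth regulator, was measured at 41.8 to 107 FPKM in the knockouts and 25.2 to 54.1 FPKM in the wild types (0.99 ± 0.31, limma adjusted p = 0.0568). It passed without knockout 4 (limma adjusted p = 0.00434). Nrarp, a feedback inhibitor that Notch induces, was measured at 85.5, 125, 54.6 and 31.4 FPKM across knockouts 1 to 4 and 46.9 to 72.7 FPKM in the wild types, so the knockouts lay on both sides (0.15 ± 0.36, limma adjusted p = 0.831). Gm38287 on the other strand shares 2051 exonic bases with Nrarp.

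Of the 8 other Hes and Hey genes on the list 6 were in the table and only Hes6 reached the level needed for a test. Its level was 3.37 to 5.48 FPKM in the knockouts and 2.00 to 4.64 FPKM in the wild types (0.42 ± 0.21, limma adjusted p = 0.241). None of the tested genes of sugar transfer (4), ligand ubiquitination (3) or the other ligands (2) passed. Lfng, the Fringe enzyme that modifies the receptors, was measured at 14.5, 12.5, 12.3 and 2.05 FPKM across knockouts 1 to 4 and 5.48, 8.17, 13.5 and 22.8 FPKM across wild types 1 to 4 (-0.32 ± 0.56, limma adjusted p = 0.754). It passed as lower with the basal marker covariate (-2.02, limma adjusted p = 0.0286) and with the melanocyte covariate (-0.97, limma adjusted p = 0.00106). In those fits 5.71% and 17.9% of all tested genes passed. Dll1, the Delta ligand of the basal layer, was measured at 10.9, 8.46, 5.71 and 2.01 FPKM across knockouts 1 to 4 and 2.39, 3.11, 6.00 and 9.06 FPKM across wild types 1 to 4 (0.30 ± 0.46, limma adjusted p = 0.718). Knockout 4 and wild type 1 were the lowest of their genotypes for both genes, as for Jag2. The ubiquitin ligase Mib1, which activates ligands, was at 22.6 to 33.7 FPKM in all 8 libraries (-0.13 ± 0.13, limma adjusted p = 0.563).

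**Figure D4:**
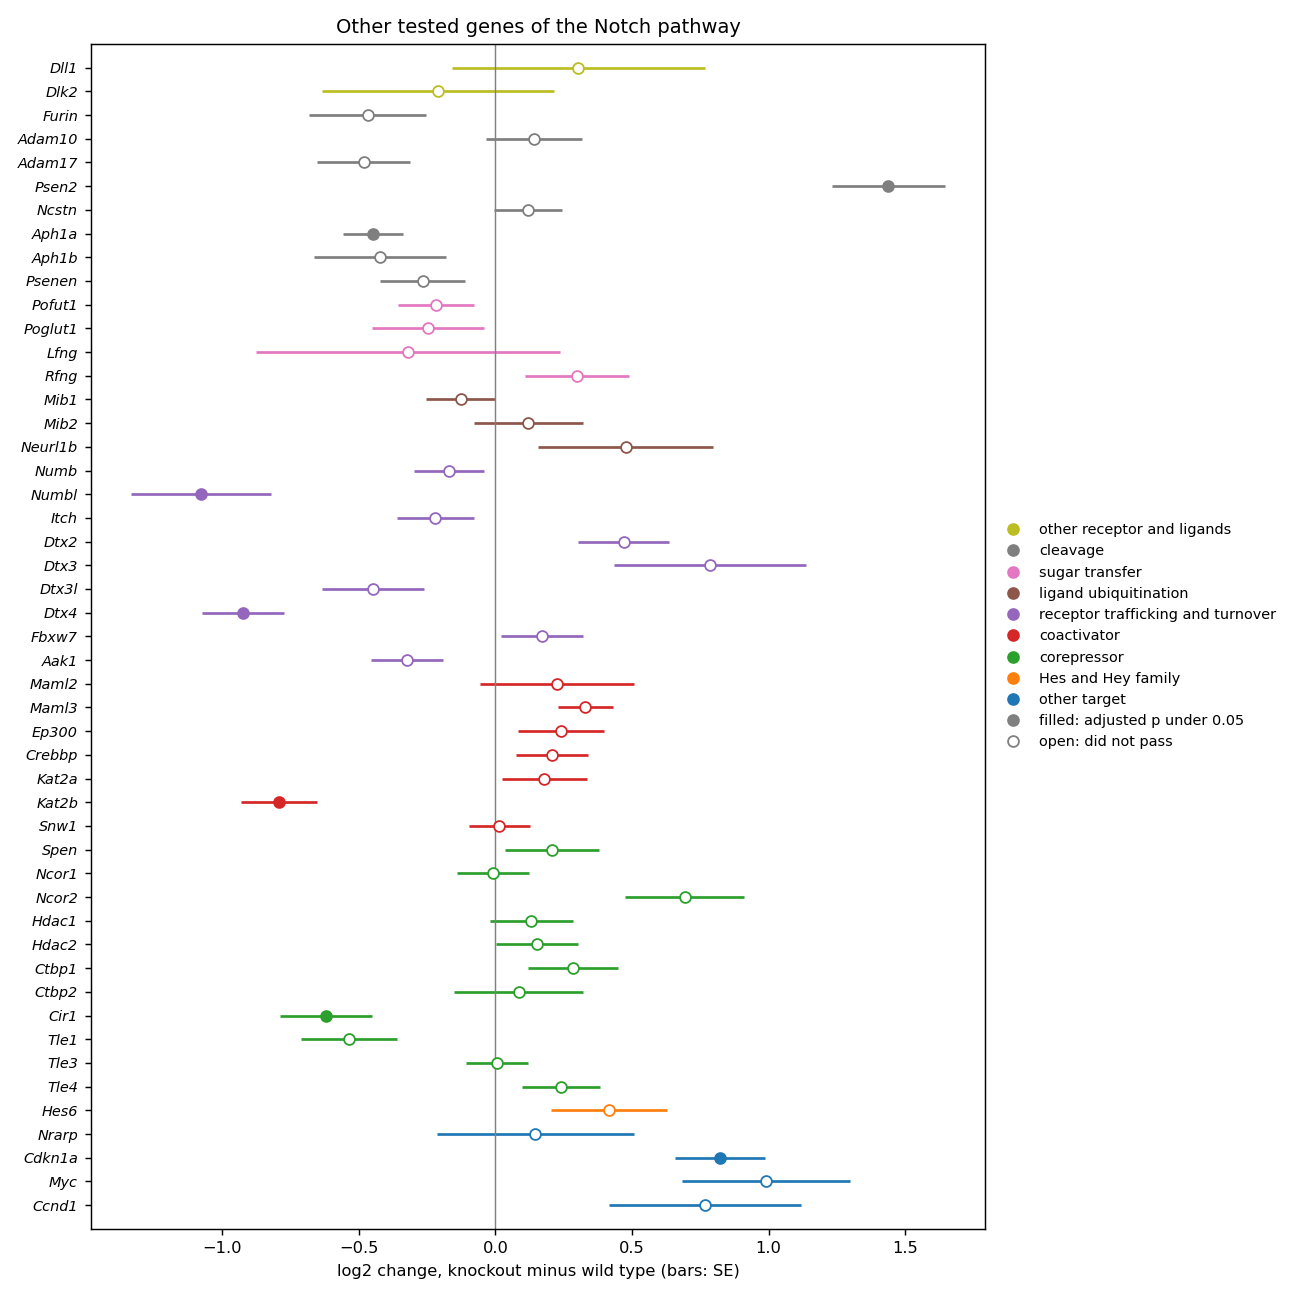
Log2 change (knockout minus wild type, bars ± SE) of other tested pathway genes, coloured by role, filled where the limma adjusted p is under 0.05. Psen2 and Cdkn1a are the filled points to the right of 0, and Numbl, Dtx4, Kat2b, Cir1 and Aph1a those to the left.

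The genes whose profile lay nearest to that of Notch1 were taken by the root mean square difference of centred log2(FPKM + 1) values over the 8 libraries. They were Lims1 (0.13), an adaptor of integrin adhesions, Il17re (0.15), a subunit of the receptor for interleukin 17C, and Itga2 (0.16), the integrin subunit that binds collagen. Lims1 stood at 22.2 to 26.996 FPKM in the knockouts, at 5.28 and 4.95 FPKM in wild types 1 and 2 and at 9.59 and 10.4 FPKM in wild types 3 and 4. Itga2 stood at 6.92 to 8.23 FPKM in the knockouts, at 0.693 and 0.893 FPKM in wild types 1 and 2 and at 2.05 and 2.31 FPKM in wild types 3 and 4. As with Notch1, wild types 1 and 2 were the lowest libraries and knockout 4 was not low. The genes were picked for a profile near that of Notch1, so this likeness follows from the choice.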

How the data were processed

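RNA was measured in 8 samples of peeled newborn mouse epidermis, 4 of the knockout genotype and 4 of the wild type. The authors deposited FPKM for each gene symbol in each library. Per the submitters' processing notes the genome build was mm10. For the aligner, quantification program, annotation and strand setting: not given in the sources used here. Missing values were taken as 0, and 4 genes listed at 0 in some libraries and at 100 FPKM or more in others were left out. Genes at 1 FPKM or more in at least 4 of 8 libraries were tested (3 of 7, or 2 of 5 or 4, in fits on fewer) on log2(FPKM + 1) with limma 3.58.1 (R 4.3.3, mean-variance trend), with Benjamini-Hochberg adjustment over all tested genes. The test was run on simulated data with noise drawn independently for each gene and library. That check does not cover deviations shared between genes. Changes of log2(FPKM + 1) understate those of low genes. Named genes were the 8 members, every list gene that passed, up to 2 abundant genes per role that did not, and the 3 nearest profiles. Snw1, Crebbp, Hdac2, Tle3, Mib2, Itch, Poglut1 and Dlk2, which did not pass, also met the rule and were left undescribed after their values were seen. Some genes of the lists are counted but not reported here by name or in the plot. The members and lists were chosen with earlier results of these data known. Gene positions and exons are from GENCODE M21. Alternatives were another pseudocount and other filters, scalings, weights, covariates, title codes, and leaving out libraries.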

Additional observations from a re-analysis of the deposited data

Results flagged for a closer look

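Rbpj in knockout 4 lay apart from the other knockouts. It stood at 10.5 FPKM there, against 13.99 to 14.3 FPKM in knockouts 1 to 3, a gap of 0.921 of the group's range, above Dixon's 95% critical value for 4 samples. This was 1 of 50 groups looked at, and chance marks about 1 in 20. Knockout 4 also had the lowest level among knockouts of Jag2, Maml1, Numbl, Nrarp, Lfng, Dll1 and the melanocyte markers, and their part in the Rbpj value was not tested.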

How the results depend on the processing

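Notch1 kept its direction and its call in all 21 alternatives, at log2 changes from 0.9995 to 2.19 (limma adjusted p 2.53e-04 to 0.0426). Rbpj, Notch2 and Hes1 kept their direction in all 21. Notch2 passed in 3 of them, Hes1, Jag2 and Maml1 in 1 each, and Notch3, Jag1 and Rbpj in none. Genes called over the table went from 1785 to 3669 with array weights, 1141 with log2 Xist as a covariate, 651 with the basal marker covariate, 1032 without knockout 4 and wild types 1 and 2 together, and 1123 to 2326 when single libraries were left out (1123 without wild type 1). Members called were 4 with array weights (Notch1, Notch2, Jag2, Maml1), when 32.2% of all tested genes were called. With the melanocyte covariate 2 were called (Notch1 and Hes1, the latter at 0.90, limma adjusted p = 0.0226), when 17.9% of all tested genes were. Without single libraries 1 to 2 members were called. The other pathway genes called were 8, and 19 with array weights, 2 with the basal covariate, 5 without the 3 libraries together and 4 to 13 without single libraries. The covariates of markers and the omission of 3 libraries were chosen after the data were seen.

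With the title code as a replicate block, 2 members (Notch1 and Notch2, -0.37, limma adjusted p = 0.0359) and 14 other pathway genes passed, with 2261 genes over the table. Deviations of libraries with the same code correlated at 0.389 (code 11), 0.238 (code 14) and -0.154 to 0.427 (code 44). Those of a knockout and a wild type with different codes correlated at -0.435 to 0.202. The same-code values lay mostly higher, but the ranges overlapped and the meaning of the codes is not stated. The codes were therefore not taken to pair the samples, and whether they do was not tested. Permuted within codes, the pair differences had adjusted exact permutation p-values of 0.167 to 0.5, a design that cannot reach 0.05.

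Some changes that did not pass turned sign, and the cause was not tested. For Notch3 they were -0.0077 with quantile normalization, -0.028 with equal medians, -0.17 with array weights, -0.36 within codes 11 and 14 and -0.20 without the 3 libraries. Jag1 was at -0.038 within codes 11 and 14. Nrarp was at -0.33 with Xist, -0.35 within code 44, -0.34 with the basal and -0.12 with the melanocyte covariate. Dll1 was at -0.26 with Xist, -1.09 with the basal and -0.20 with the melanocyte covariate. With the basal covariate Jag2 was at -0.67, Maml1 at -0.021, Psenen at 0.068 and Hes6 at -0.16, and Lfng was at 0.30 with array weights. Without single libraries Notch3 ranged from -0.17 to 0.15, Nrarp from -0.16 to 0.49 and Lfng from -0.62 to 0.23. Without knockout 2 the pair differences passed for Notch1 against Notch2 (2.02), Notch1 against Notch3 (1.53) and Notch2 against Notch3 (-0.48), each with an adjusted exact permutation p = 0.0381. Pairs are adjusted together, so the Notch1 pairs passed there only because Notch2 against Notch3 reached an equally small p-value. Their unadjusted p-values could not fall below those with all libraries. Without single libraries the 3 differences ranged from 1.77 to 2.17, 1.46 to 1.77 and -0.48 to -0.29, and that of Jag1 against Jag2 from -0.88 to -0.12.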
